A study of Homo sapiens with 6 samples.

Results

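CTGF and CYR61, now also named CCN2 and CCN1, are genes for secreted matrix-associated proteins of the CCN family. The data for them are all E2F7 peaks that overlap either of 2 hg18 windows, chromosome 6 from 132300000 to 132325000 for CTGF and chromosome 1 from 85805000 to 85835000 for CYR61. The windows hold 10 peaks of the 63371 in 3 peak lists, 5 at each locus. Senescent cells with RB knockdown account for 5 of these peaks, quiescent cells for 2 and growing cells for 3. The loci were chosen from these same lists, so their peak scores, tags and ratios are a description and carry no test.

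Each list comes from chromatin immunoprecipitation and sequencing (ChIP-seq) of E2F7 in IMR90, a human fetal lung fibroblast line, with 10 µg of antibody per ChIP. The first state was Ras-induced senescence with a hairpin against RB, the retinoblastoma protein, in cells that carried an ER-Ras vector and were collected 4 days after tamoxifen. The second was quiescence and the third was growth, both labelled as having no treatment. Every state had 1 library of the same line, so no value below has a replicate error. A library of senescent cells infected with Ras and a hairpin against E2F7 was not analysed here, so the peaks were not compared with it. All intervals are 95% exact intervals and cover counting error only. The libraries held 23379790 (RB knockdown), 25212239 (quiescent) and 22628990 (growing) tags after the caller's duplicate limit.

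E2F7 is an atypical E2F protein that binds DNA without a DP partner and represses E2F target genes, many of which act in DNA replication and cell division. CTGF and CYR61 are not among those textbook cell cycle targets. They are rapidly induced by serum, mechanical load and TGF-beta, are widely used readouts of the co-activators YAP and TAZ acting with TEAD factors, and are strongly expressed in cultured fibroblasts. Their proteins bind integrins and heparan sulphate at the cell surface and influence adhesion, matrix production and fibrosis. CYR61 is also known as an inducer of fibroblast senescence.

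The promoter of CTGF is shown because it carries the textbook TEAD sites of this gene and was searched for E2F motifs. The 250 bases before the RefSeq gene start of CCN2 (GRCh38.p14, chr6:131951373-131951622, minus strand) read as follows, with matches to the TEAD motif GGAATG on either strand in capitals.
CCN2 promoter: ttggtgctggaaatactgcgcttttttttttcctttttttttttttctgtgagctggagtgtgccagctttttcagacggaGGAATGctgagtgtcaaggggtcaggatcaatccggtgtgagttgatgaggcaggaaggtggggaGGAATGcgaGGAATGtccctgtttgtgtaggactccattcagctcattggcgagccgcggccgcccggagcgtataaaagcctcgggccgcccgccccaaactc
This stretch held 3 matches to GGAATG, starting 169, 104 and 95 bases before the gene start. At least 1 match was present in 11.9% of 35116 RefSeq promoters of the same length, and 3 or more in 0.0826%. No match was found to the E2F words TTTCCCGC, TTTCGCGC, TTTGCCGC or TTTGGCGC on either strand, which 2.79% of the promoters held, nor to the AP-1 motif TGANTCA, which 6.57% held. The matches to GGAATG do not overlap each other. The peaks are in hg18 and no hg18 annotation was used, so the exons, introns and start sites under the peaks are not given, and this stretch was not placed relative to the peaks.

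At CTGF most of the E2F7 tags in called peaks lay in 1 broad block, and its summits lay close together in the lists. The leading peak, the peak with the most tags in the window, ran from 132308035 to 132313746 on chromosome 6 in RB knockdown cells, from 132308072 to 132315033 in quiescent cells and from 132308224 to 132313542 in growing cells. Its width was 5712 bp with RB knockdown, 6962 bp in quiescence and 5319 bp in growth. It held 1353 tags (1282 to 1427) in the RB knockdown library, 1616 (1538 to 1697) in the quiescent library and 526 (482 to 573) in the growing library. The growing peak thus stood well below both others, which lay closer together.

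Per kb of its width the CTGF leading peak had 237 tags in the RB knockdown library, 232 in the quiescent library and 98.9 in the growing library. A library's mean density, its filtered tags spread evenly over the caller's effective genome size of 2700000000 bp, was 8.66, 9.34 and 8.38 tags per kb in the same order of states. The leading peak was therefore 27.4 times as dense as that mean in RB knockdown cells, 24.9 times in quiescent cells and 11.8 times in growing cells. The summits lay at 132309832 in RB knockdown cells, 132309825 in quiescent cells and 132309783 in growing cells, within 49 bp of each other. The RB knockdown and quiescent summits were 7 bp apart. Each summit sat off centre, at 31.5% of the peak's width from its lower coordinate in RB knockdown cells, 25.2% in quiescent cells and 29.3% in growing cells.

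The RB knockdown list held a further 2 peaks in the CTGF window. One ran from 132313800 to 132315141, began 53 bp beyond the end of the leading peak and held 149 tags at 111 tags per kb. Most of it covered sequence that the quiescent list called as part of its single peak, which ended at 132315033. The other ran from 132316855 to 132318222, lay 1713 bp further on and held 109 tags at 79.7 tags per kb, with a false discovery rate (FDR) of 0.43%. No quiescent or growing peak overlapped it. The growing extent was nested in the others: all 5319 bp of it were also called in the RB knockdown and the quiescent list. Of the 8475 bp called in any list at CTGF, 62.8% were called in all 3 lists.

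CYR61 had a longer block. Its leading peak ran from 85815237 to 85826581 on chromosome 1 in RB knockdown cells, from 85814294 to 85825202 in quiescent cells and from 85818215 to 85825717 in growing cells. Its width was 11345 bp with RB knockdown, 10909 bp in quiescence and 7503 bp in growth. It held 2235 tags (2143 to 2330) in the RB knockdown library, 1801 (1719 to 1886) in the quiescent library and 914 (856 to 975) in the growing library. The libraries thus stood apart at CYR61 in steps.

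Per kb the CYR61 leading peak had 197 tags in the RB knockdown library, 165 in the quiescent library and 122 in the growing library. Relative to the mean density of the library it was 22.8 times as dense in RB knockdown cells, 17.7 times in quiescent cells and 14.5 times in growing cells. CYR61 was less dense than CTGF in RB knockdown and quiescent cells and denser than CTGF in growing cells. The summits lay at 85822805 in RB knockdown cells, 85822695 in quiescent cells and 85822704 in growing cells, within 110 bp of each other. At CYR61 it was the quiescent and growing summits that were closest, at 9 bp. They sat towards the higher coordinate, at 66.7% of the peak's width in RB knockdown cells, 77.0% in quiescent cells and 59.8% in growing cells.

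A smaller peak accompanied the CYR61 block in 2 lists. In RB knockdown cells it ran from 85814322 to 85815211, ended 25 bp before the leading peak and held 58 tags. In growing cells it ran from 85815255 to 85817669, was separated from the leading peak by 545 bp and held 157 tags with an FDR of 34.4%. In quiescent cells both of these stretches belonged to the single peak. Of the 12288 bp called in any list at CYR61, 76.5% were called in all 3 lists, and all 9918 bp of the growing extent were also called with RB knockdown. The RB knockdown list was called with a fragment length of 125 bp and the other lists with 200 bp, so how a block was divided into peaks was not compared between states.

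**Figure D1:**
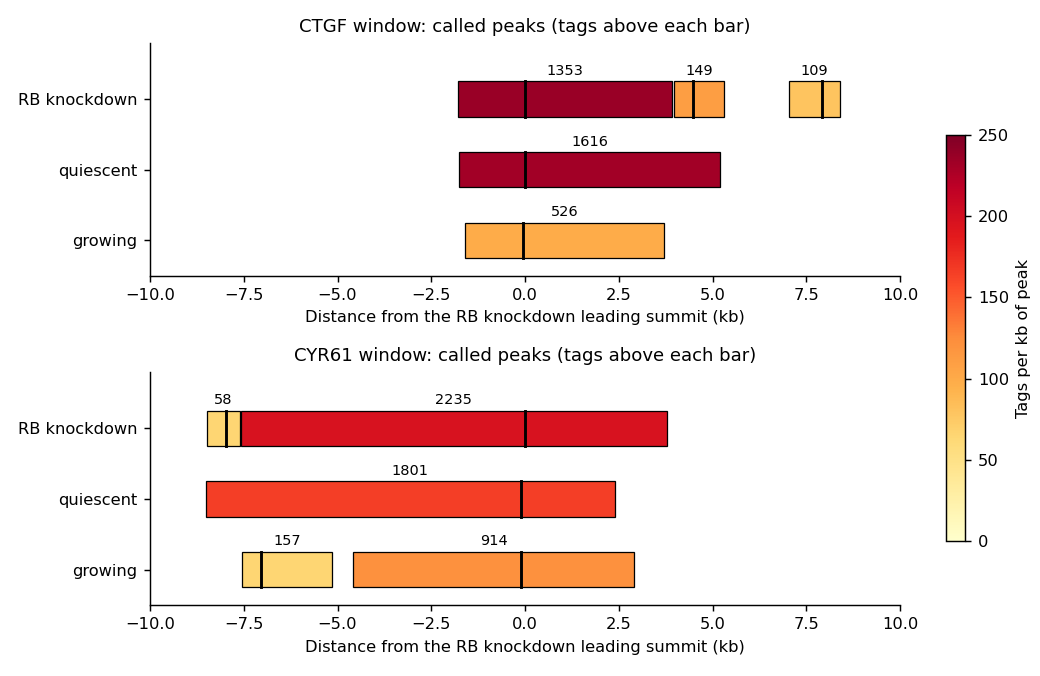
Called E2F7 peaks in the CTGF and CYR61 windows, by list, against distance from the RB knockdown leading summit in kb; bar colour is tags per kb of peak, the number above a bar its tags and the black line its summit. The leading summits line up within 49 bp at CTGF and 110 bp at CYR61, while the growing blocks are the shortest.

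Summits within 200 bp were found at many shared sites, and less often at wide ones. In 46.2% of the 1193 regions with a peak in all 3 lists, the summits of the leading peaks lay within 200 bp, and both loci met that limit. Among the 47 regions with a peak of 3000 bp or more in every list (the wide regions), a set that includes both loci, the share was 23.4%. Regions in all 3 lists made up 2.19% of the 54578 regions obtained by merging overlapping peaks.

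Because the libraries differ in depth, tags were summed over the called peaks of a window and scaled to 1000000 filtered tags of the library. At CTGF the scaled value was 68.9 tags (65.6 to 72.4) in RB knockdown cells, 64.1 (61.0 to 67.3) in quiescent cells and 23.2 (21.3 to 25.3) in growing cells. The RB knockdown and quiescent intervals overlapped, and growing cells lay far below. At CYR61 the scaled value was 98.1 tags (94.1 to 102) in RB knockdown cells, 71.4 (68.2 to 74.8) in quiescent cells and 47.3 (44.5 to 50.3) in growing cells. There the 3 values were separate, with quiescent cells between the other states. The leading peak carried 84.0% of the CTGF tags in RB knockdown cells, and at CYR61 97.5% in RB knockdown cells and 85.3% in growing cells. In the remaining cases it was the only peak of its window.

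RB knockdown cells thus held 2.96 times (2.68 to 3.28) the scaled tags of growing cells at CTGF and 2.07 times (1.93 to 2.23) at CYR61. The CTGF sum includes 109 tags of a peak that only the RB knockdown list called. In the region shared by all 3 lists the CTGF ratio was 2.76. By the ratio in shared regions, CTGF ranked 136 of 1193 from the top and 18 of the 47 wide ones, and CYR61 ranked 285 and 24. A ratio of at least 2 was met at both loci, and by 25.9% of the 1193 regions in all 3 lists and 53.2% of the 47 wide ones. The median ratio was 1.398 over the 1193 regions and 2.07 over the wide ones, where CYR61 itself was the median. The called extents differed as well. Per kb of called sequence the values were 8.18 (RB knockdown) and 4.37 (growing) scaled tags at CTGF, a ratio of 1.87, and 8.02 and 4.77 at CYR61, a ratio of 1.68. Without the RB knockdown peak that no other list called, the CTGF ratio per kb was 2.08, and for the leading peak alone it was 2.32. The median per kb was 1.59 over the 1193 regions and 1.80 over the wide ones, which lies above the CYR61 value.

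Quiescent cells held 2.76 times (2.50 to 3.05) the scaled tags of growing cells at CTGF and 1.51 times (1.399 to 1.63) at CYR61. A ratio of at least 2 was met at CTGF and not at CYR61, against 14.8% of the 1193 regions and 23.4% of the wide ones. CTGF ranked 3 of the 47 wide regions from the top by this ratio, and CYR61 ranked 19. Per kb of called sequence the quiescent to growing ratio was 2.11 at CTGF and 1.37 at CYR61. A ratio of 2 per kb was reached by 2.85% of the 1193 regions and 8.51% of the wide ones.

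Between the RB knockdown and quiescent libraries the loci parted. At CYR61 the RB knockdown library held 1.37 times (1.29 to 1.46) the scaled tags of the quiescent library, and the RB knockdown value was higher in every alternative computed. At CTGF the ratio was 1.08 (1.003 to 1.15), and its direction depended on what was summed. It was 0.903 for the leading peak alone, 0.889 per kb of called extent and 1.002 in the region that all 3 lists share. Per kb it was 1.10 for the leading peak alone and 0.989 in that shared region. Neither locus reached a ratio of 2, which 12.4% of the 1193 regions and 25.5% of the wide ones did. The median ratio was 1.11 over the 1193 regions and 1.68 over the wide ones. For the region shared by all 3 lists, CTGF ranked 45 of 47 from the top of the wide regions, and CYR61 ranked 35.

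The loci were also set against each other directly. The ratio at CTGF over that at CYR61 does not depend on the depth scaling, though it still rests on what each list called. It was 1.43 (1.26 to 1.62) for RB knockdown over growing, 1.83 (1.61 to 2.07) for quiescent over growing and 0.783 (0.713 to 0.860) for RB knockdown over quiescent. For the leading peaks alone it was 1.05 for RB knockdown over growing (0.925 to 1.20) and 1.56 for quiescent over growing (1.37 to 1.77). For RB knockdown over quiescent the leading peaks gave 0.675 (0.613 to 0.743). Leading-peak values also depend on how each list divided a block into peaks, which these intervals do not cover. The fragment length was 125 bp in the RB knockdown list and 200 bp in the other lists. Per kb of called extent the RB knockdown over growing value was 1.11, so the loci had nearly the same ratio on these 2 measures. In the region shared by all 3 lists the value was 1.33. Per kb of the leading peak alone, RB knockdown over growing was 2.32 at CTGF and 1.57 at CYR61. How close the loci were thus depended on the measure. These ratios share libraries and called extents, and they compare libraries, not states.

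**Figure D2:**
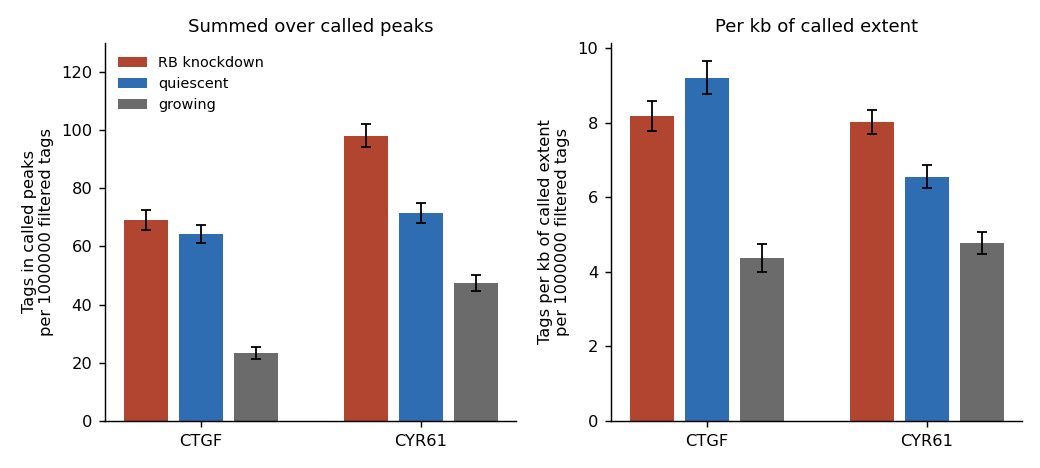
Tags in called peaks per 1000000 filtered tags (left) and the same per kb of called extent (right) at CTGF and CYR61 in RB knockdown, quiescent and growing libraries, 1 library each; error bars are 95% exact Poisson intervals for the tag count. Growing cells are lowest at both loci; per kb, CTGF had 8.18 in RB knockdown cells and 9.21 in quiescent cells.

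Within each list the leading peaks of both loci stood near the top by tags, width and density. By tags, CTGF ranked 14 of the 43648 RB knockdown peaks, 6 of the 10242 quiescent peaks and 11 of the 9481 growing ones. CYR61 ranked 7, 4 and 4 among the same peaks. By tags per kb CTGF ranked 43 (RB knockdown), 10 (quiescent) and 26 (growing), and CYR61 ranked 96, 24 and 18. The median RB knockdown peak had 56.4 tags per kb, the median quiescent peak 42.9 and the median growing peak 33.0.

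The loci were also wide. The median width was 650 bp for RB knockdown peaks, 1091 bp for quiescent peaks and 711 bp for growing ones. Peaks of at least 3000 bp made up 0.603%, 3.20% and 1.55% of these lists, and both leading peaks exceeded that width in every list. Among the wide peaks of its own list, the CTGF leading peak was denser than 97.7% of those with RB knockdown, 99.4% of those in quiescence and 95.2% of those in growth. For CYR61 these shares were 96.6%, 98.2% and 97.3%.

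Fold enrichment over local background, the authors' value for each peak, ordered the loci differently. At CTGF it was 21.7 in the RB knockdown list, above 99.5% of that list, and 21.7 in the quiescent list, above 99.6%. The growing CTGF peak had a fold enrichment of 5.94, above 33.5% of its list. At CYR61 it was 14.1 with RB knockdown (above 97.5%), 9.88 in quiescent cells (above 90.5%) and 6.79 in growing cells (above 58.3%). In the growing list both loci were thus ordinary by fold enrichment while ranking near the top by tags.

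Of the 10 peaks, 9 had an FDR of 5% or less. They were 5 of 5 peaks with RB knockdown, 2 of 2 in quiescence and 2 of 3 in growth, against 98.0%, 17.8% and 1.84% of all peaks in these lists. The -10*log10 p value of the CTGF leading peak was 3100 both with RB knockdown and in quiescence, and 868 in growth. The value 3100 was shared by 14 RB knockdown peaks, with 3 above it, and by 4 quiescent peaks, with 0 above it, so it gives no order among the peaks that share it. The CYR61 leading peak had 2570 with RB knockdown, 1218 in quiescent cells and 646 in growing cells. Scores of a peak caller are comparable only within a list, so these values were not compared between states.

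**Figure D3:**
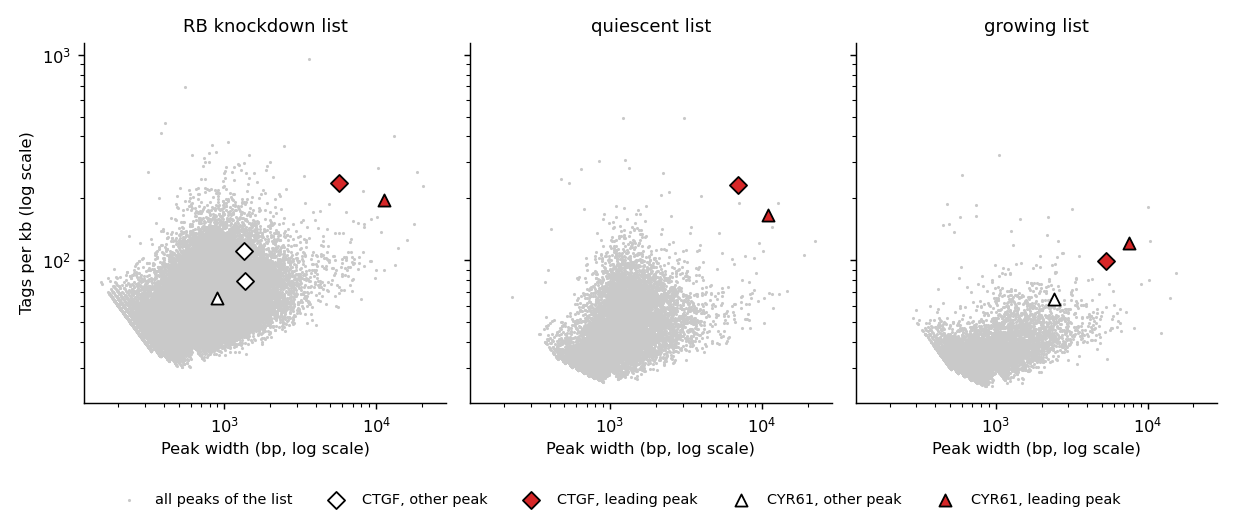
Peak width in bp against tags per kb (both log axes) for all peaks of the RB knockdown, quiescent and growing lists, with the peaks of the CTGF and CYR61 windows marked. The leading peaks of both loci lie among the wide and dense peaks in each list, from 98.9 to 237 tags per kb.

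Peaks around the windows were counted in each list. Within 100 kb on either side of the CTGF window there were 8 peaks with RB knockdown and 0 in either quiescence or growth. The RB knockdown list is the longest, and peaks spread evenly over the effective genome size would put 3.23 RB knockdown, 0.759 quiescent and 0.702 growing peaks in flanks of that size. The densest of the RB knockdown flanking peaks had 144 tags per kb. The nearest peak outside the window was 5228 bp away in the RB knockdown list, with 33 tags, 116654 bp away in the quiescent list and 466659 bp away in the growing list. Around CYR61 there were 6 RB knockdown, 4 quiescent and 1 growing peaks within 100 kb. The nearest lay 9838 bp from the window with RB knockdown (267 tags), 9917 bp in quiescent cells (127 tags) and 92389 bp in growing cells (45 tags). A missing peak means that no call passed the threshold of that list.

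Likeness to other sites was measured among the 47 wide regions as the distance between log2 ratios of scaled tags, RB knockdown over growing and RB knockdown over quiescent. The region most like CTGF was on chromosome 1, 59015382 to 59024911, at a log2 distance of 0.23. It held 51.9 scaled tags in RB knockdown cells, 46.0 in quiescent cells and 16.8 in growing cells. For CYR61 the region most alike was on chromosome 16, 85103712 to 85112215, at 0.093, with 22.6 scaled tags in RB knockdown cells, 15.5 in quiescent cells and 10.6 in growing cells. CYR61 itself came 6 in the order of likeness to CTGF, at a log2 distance of 0.62, and CTGF came 24 in the order of likeness to CYR61. The next regions by likeness to CTGF lay on chromosomes 4, 1, 17 and 17, and by likeness to CYR61 on chromosomes 19, 7, 17 and 1. The chromosome 1 region at 148813360 to 148819738 was in both sets of 5.

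**Figure D4:**
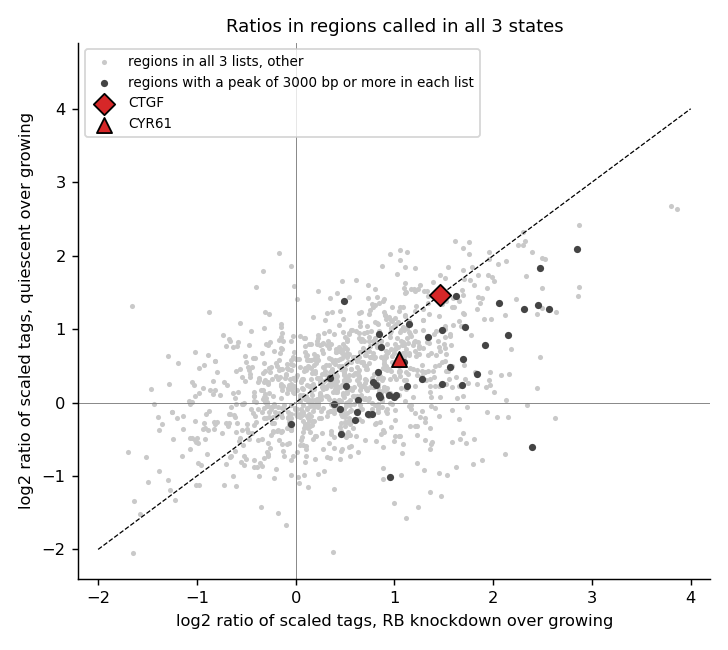
Log2 ratio of scaled tags, RB knockdown over growing (x) against quiescent over growing (y), for the 1193 regions in all 3 lists; dark points are the wide regions, red symbols the merged regions of CTGF and CYR61, and the dashed line marks equal RB knockdown and quiescent values. CTGF lies on the dashed line and CYR61 below it; both axes share the growing library.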

How the data were processed

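E2F7 ChIP-seq peak lists of 3 of the 6 labelled samples were used. The submitters' processing notes name Bowtie and the genome build hg18. Per the file headers, peaks were called with MACS 1.4.1 on each library alone against 1 common control library (p cutoff 1e-05, at most 2 tags per position, tag size 36 bp), and which labelled sample that control was is not given in the sources used here. Deposited values, per the file headers, are the tag count of each peak, a score of 10 times the −log10 p, the fold enrichment as a linear ratio, the FDR as a percent, and positions and widths in bp. They were used as deposited. Tag counts were scaled to 1000000 filtered tags and divided by kb of called width. Peaks overlapping by at least 1 bp were merged into regions. Intervals are exact Poisson intervals for tags, Clopper-Pearson intervals for ratios and conditional odds ratio intervals between loci (scipy 1.17.1). The region and ratio steps were tested on simulated data. The naming rule was every peak in either window, the nearest peaks outside it and the 5 wide regions most alike. Other CCN genes and YAP targets were not placed, for want of an hg18 annotation, and cell type markers were not checked for the same reason. CTGF and CYR61 matched CCN2 and CCN1 in RefSeq, and a promoter sequence was matched for 1 of the 2. The windows, members and measures were chosen with earlier results of these data known. The alternatives tried were depth scaling, leading peak, per kb values, thresholds on score, FDR and fold, a wider window, and, chosen after seeing the data, the shared region and all alternatives for the ratio between loci.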

Additional observations from a re-analysis of the deposited data

How the results depend on the processing

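With 1 library per state no replicate could be left out. No paired analysis was possible because each state had 1 sample. Of 101 recomputed values, 55 stayed within the counting interval of the reported value or within 1.5 times a reported count, 44 moved and 2 reversed, both for RB knockdown over quiescent at CTGF (0.903 for the leading peak, 0.889 per kb). That ratio was 1.002 at a -10*log10 p of at least 100 and in the shared region. The leading-peak and shared-region values leave out smaller RB knockdown peaks by construction, as does that score. For RB knockdown over growing the leading peak gave 2.49 at CTGF and 2.37 at CYR61, and per kb values were 1.87 and 1.68. For CYR61 it was 2.43 at an FDR of at most 5% and 2.31 in a window widened by 10 kb on each side. Quiescent over growing was 2.11 per kb at CTGF, and at CYR61 1.37 per kb and 1.77 both for the leading peak and at that FDR, where the smaller growing peak drops out. RB knockdown over quiescent at CYR61 was 1.22 per kb. The ratio at CTGF over that at CYR61 was, for the leading peaks, 1.05 (RB knockdown over growing), 1.56 (quiescent over growing) and 0.675 (RB knockdown over quiescent), and per kb 1.11 and 1.54 for the first and second of these pairs.

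With fold enrichment of at least 10 required, the windows held 0 growing peaks at either locus, 0 quiescent peaks at CYR61 and 1 RB knockdown peak there. CTGF kept 2 RB knockdown peaks and 1 quiescent peak at that limit. A -10*log10 p of at least 100 also left 1 RB knockdown peak at CYR61, an FDR of at most 5% left 1 growing peak there, and the wider window held 2 quiescent peaks. The share of each whole list passing the fold and score limits was not counted, so these counts only describe the windows. By tags per kb, the CTGF leading peak was above 97.7% of RB knockdown, 99.4% of quiescent and 95.2% of growing peaks of at least 3000 bp, and above 99.5% of quiescent and 86.8% of growing peaks at an FDR of at most 5%. The CYR61 peak was above 96.6%, 98.2% and 97.3% of the wide peaks, and above 98.7% of quiescent and 91.4% of growing peaks at that FDR.

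The share of regions at a ratio of at least 2 for RB knockdown over growing was 33.6% at an FDR of at most 5%, 22.9% per kb and 53.2% in wide regions. For RB knockdown over quiescent it was 25.4% at that FDR and 25.5% in wide regions. For quiescent over growing it was 17.5% when scaled to total tags, 11.5% at that FDR, 2.85% per kb and 23.4% in wide regions. Summit distances stayed at 49 bp and 110 bp. With 1 library each, the intervals cover counting error only, and the spread between libraries of 1 state is unknown. Depth can also affect which sequence passed the calling threshold of a list, and this was not tested.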
